A study of Mus musculus with 23 samples.

Results

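The cytosolic ribosomal protein genes encode the protein components of the ribosome that works outside mitochondria. They were chosen by symbol alone, as every gene named Rps or Rpl followed by its number or letter code, with names marked as pseudogenes by "-ps" left out. The rule found 88 genes among 29894 symbols in the 3 tables: 88 in muscle, 88 in fat and 87 in hypothalamus, where Rpl39l is not listed. Of these, 52 belong to the large subunit (Rpl, with the stalk genes Rplp0, Rplp1 and Rplp2) and 36 to the small subunit (Rps and Rpsa). GENCODE annotates 82 as protein-coding, 50 large and 32 small, and 6 as pseudogenes despite their symbols: Rpl32l, Rpl6l, Rps12l1, Rps3a2, Rps3a3 and Rps4l. The 88 genes lie on 19 chromosomes, and 30 of them hold a small nucleolar RNA gene within their bounds. The 82 protein-coding members have coding lengths of 75 to 1257 bases, with a median of 454 against 1155 for all protein-coding genes.

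The study gave C57BL/6 mice oxaliplatin, a platinum drug used against cancer, at 10 mg/kg, or vehicle, and took tissue after 8 weeks. Libraries came from tibialis anterior muscle (5 oxaliplatin, 4 vehicle mice), subcutaneous white fat (4 and 3) and hypothalamus (4 and 3). Each library is 1 mouse, and no sex or age is given in the labels. The muscle RNA went through a SMARTer kit and the RNA of the other tissues through one that depletes ribosomal RNA, so levels are compared within a tissue.

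A ribosome has a small subunit, which reads the messenger RNA, and a large subunit, which joins amino acids, and each protein is present in about one copy per ribosome. Most of these genes are therefore expressed together and at high levels in every tissue. Their messenger RNAs typically start with a cytosine followed by a run of pyrimidines, the terminal oligopyrimidine (TOP) motif, through which the kinase mTOR controls their translation. Ribosomal protein messenger RNA is abundant in growing and dividing cells, while skeletal muscle also uses a muscle-restricted paralog, Rpl3l, beside Rpl3.

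The start sites of 8 members show where a search found this motif and where it did not. They are 5 of the 6 members with the highest fold change in fat, those with a RefSeq start, followed by 3 paralogs. Each sequence runs from 30 bases before to 12 bases from the RefSeq start, in the direction of the gene, from RefSeq on GRCm38.p6, and capitals mark the pyrimidine tract that a search found. The search took a C followed by at least 4 pyrimidines (C or T) that began within 5 bases of the start. Rpl3l has no capitals because no such tract was found there, and its other RefSeq start had none either. Of the RefSeq starts of Rps27l, the one with a tract is shown, and the other had none.
Rps27, chr3:90213637-90213678, minus strand: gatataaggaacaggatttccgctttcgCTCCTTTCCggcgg
Rps6, chr4:86857356-86857397, minus strand: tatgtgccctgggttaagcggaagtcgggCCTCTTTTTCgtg
Rpl12, chr2:32961682-32961723, plus strand: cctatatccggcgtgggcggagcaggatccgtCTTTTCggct
Rplp2, chr7:141447621-141447662, plus strand: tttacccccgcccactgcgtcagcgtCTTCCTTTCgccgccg
Rps18, chr17:33955654-33955695, minus strand: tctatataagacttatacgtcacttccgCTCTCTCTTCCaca
Rpl22l1, chr3:28805478-28805519, plus strand: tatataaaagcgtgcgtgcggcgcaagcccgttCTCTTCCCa
Rps27l, chr9:66946056-66946097, plus strand: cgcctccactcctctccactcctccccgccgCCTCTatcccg
Rpl3l, chr17:24727796-24727837, plus strand: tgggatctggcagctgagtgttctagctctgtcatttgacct

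RefSeq start windows were matched for 63 of the 88 members. A tract was found in 30 of them, or 47.62%, against 21.16% of 27025 genes with a window. The letters CCGGAAG, the core to which ETS-family factors bind, were found on either strand in the 300 bases from 250 before to 50 after the start in 26 members, or 41.27%, against 9.93% of all genes. A match describes letters in a window and not a used site, and a missing match does not show that the motif is absent. The members without a tract may include genes with the motif, so the medians that follow compare search results only. The members with and without a tract had close median log2 fold changes (oxaliplatin over vehicle): 0.40 and 0.40 in fat, 0.25 and 0.23 in hypothalamus, and 0.16 and 0.19 in muscle. The 30 members that hold a small nucleolar RNA had medians of 0.47 in fat, 0.22 in hypothalamus and 0.17 in muscle, against 0.39, 0.25 and 0.17 for the other protein-coding members.

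Total counts per library were about 22427700 to 32151300 in oxaliplatin and 27344000 to 31195900 in vehicle muscle, 16458500 to 17986500 and 16866100 to 22748400 in fat, and 23553600 to 26426300 and 27345600 to 28529300 in hypothalamus. Each tissue held its defining markers: summed muscle fibre markers were 133545 CPM (counts scaled by library size) or more in muscle, adipocyte markers 12219 CPM or more in fat, and neuron markers 3126 CPM or more in hypothalamus. For muscle of oxaliplatin mouse 5 the title and the treatment field disagree, the field saying vehicle, and the title was followed. In fat, vehicle mouse 4 held muscle fibre transcripts at 123785 CPM, against 16.5 to 3067 CPM in the other 6 fat libraries. Fibroblast markers in fat summed to 11038 CPM in oxaliplatin mouse 5 and 686 to 1206 CPM in the other oxaliplatin mice, against 5557 to 7798 CPM in vehicle mice. Results that rest on these libraries are given with and without them.

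In fat, nearly all ribosomal protein genes had higher values after oxaliplatin, but none passed the threshold over all genes. The median log2 fold change of the 88 members was 0.40, against 0.03 for all 19870 genes tested, and 86 of 88 were above 0, against 52.4% of all genes. The edgeR quasi-likelihood test with Benjamini-Hochberg adjustment called 0 members and 0 of all genes (0%). The smallest adjusted p of a member was 0.109, for Rps15a, a small-subunit protein. At an unadjusted p under 0.05, 61 members were higher and 2 lower, against 13.4% and 12.7% of all genes. In 59 members every oxaliplatin library lay above every vehicle library, against 10.3% of all genes. In bulk tissue, a change in the number of cells of a type and a change in RNA per cell cannot be told apart.

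Ribosomal protein genes took 1.55%, 1.74%, 1.77% and 1.27% of all counts in the fat of oxaliplatin mice 2, 3, 4 and 5, against 0.820%, 1.18% and 0.898% in vehicle mice 1, 2 and 4. Every oxaliplatin library was thus above every vehicle library, with mouse 5 nearest to them. For each library, the log2 CPM of each protein-coding member was set against its vehicle mean, and the median over the members was taken. This level was 0.46, 0.53, 0.49 and 0.22 in oxaliplatin mice 2 to 5, against -0.20, 0.13 and 0.06 in vehicle mice 1, 2 and 4. Vehicle mouse 1 was the lowest library for 76 of 82 protein-coding members, and oxaliplatin mouse 3 the highest for 45.

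**Figure D1:**
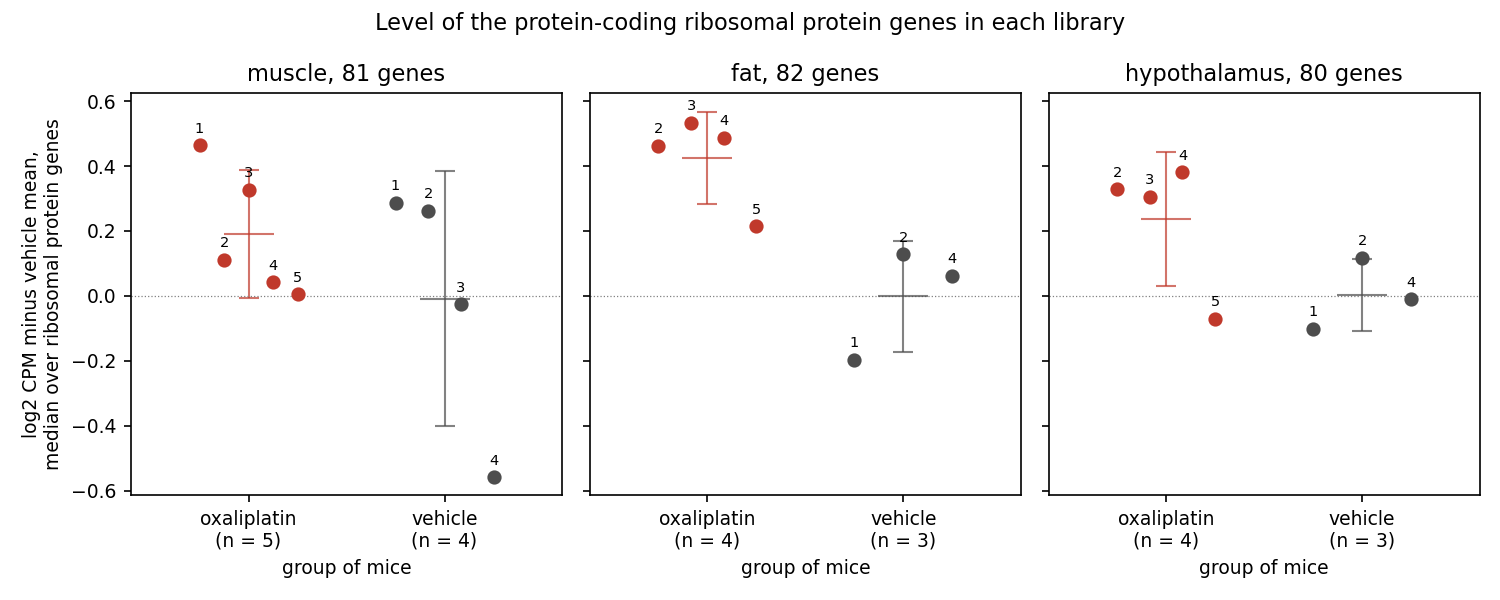
Level of the protein-coding ribosomal protein genes in each library of muscle, fat and hypothalamus. The y axis is the median over genes of log2 CPM minus the vehicle mean, points are mice labelled by number, and bars show the group mean and SD. In fat all 4 oxaliplatin mice lie above all 3 vehicle mice, in hypothalamus oxaliplatin mouse 5 lies among the vehicle mice, and in muscle the groups overlap.

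The 6 members with the highest fold change in fat came from both subunits. Rps27, a zinc-finger protein of the small subunit, had 106, 109, 94.6 and 64.1 CPM in oxaliplatin mice 2 to 5, against 44.9, 55.1 and 53.6 CPM in vehicle mice 1, 2 and 4. Its log2 fold change was 0.87 ± 0.20 (SE; edgeR adjusted p = 0.114). Rps6, the small-subunit protein that S6 kinase phosphorylates, had 376, 406, 368 and 226 CPM with oxaliplatin, against 173, 206 and 188 CPM with vehicle, a log2 fold change of 0.86 ± 0.22 (adjusted p = 0.116). For both genes the groups did not overlap, and oxaliplatin mouse 5 was the treated library nearest to vehicle.

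Rpl12, at the base of the large-subunit stalk, had 229, 259.6, 244 and 169 CPM with oxaliplatin, against 108, 141 and 132 CPM with vehicle (log2 fold change 0.83 ± 0.19, adjusted p = 0.114). Rpl3, which lies near the site of peptide bond formation, had 418, 416, 346 and 263 CPM, against 195, 242 and 182 CPM in vehicle mice (0.80 ± 0.21, adjusted p = 0.117). In both of these large-subunit genes the groups did not overlap, and mouse 5 was the lowest oxaliplatin library. Rplp2, a stalk protein that recruits elongation factors, had 375, 381, 381 and 237 CPM, against 174, 224 and 208 CPM (0.77 ± 0.21, adjusted p = 0.119). Rps18, in the head of the small subunit, had 162, 160.0, 164 and 113 CPM, against 75.6, 98.1 and 94.1 CPM (0.75 ± 0.18, adjusted p = 0.114). In both, oxaliplatin mice 2 to 4 were almost level with each other and mouse 5 stood well below them.

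**Figure D2:**
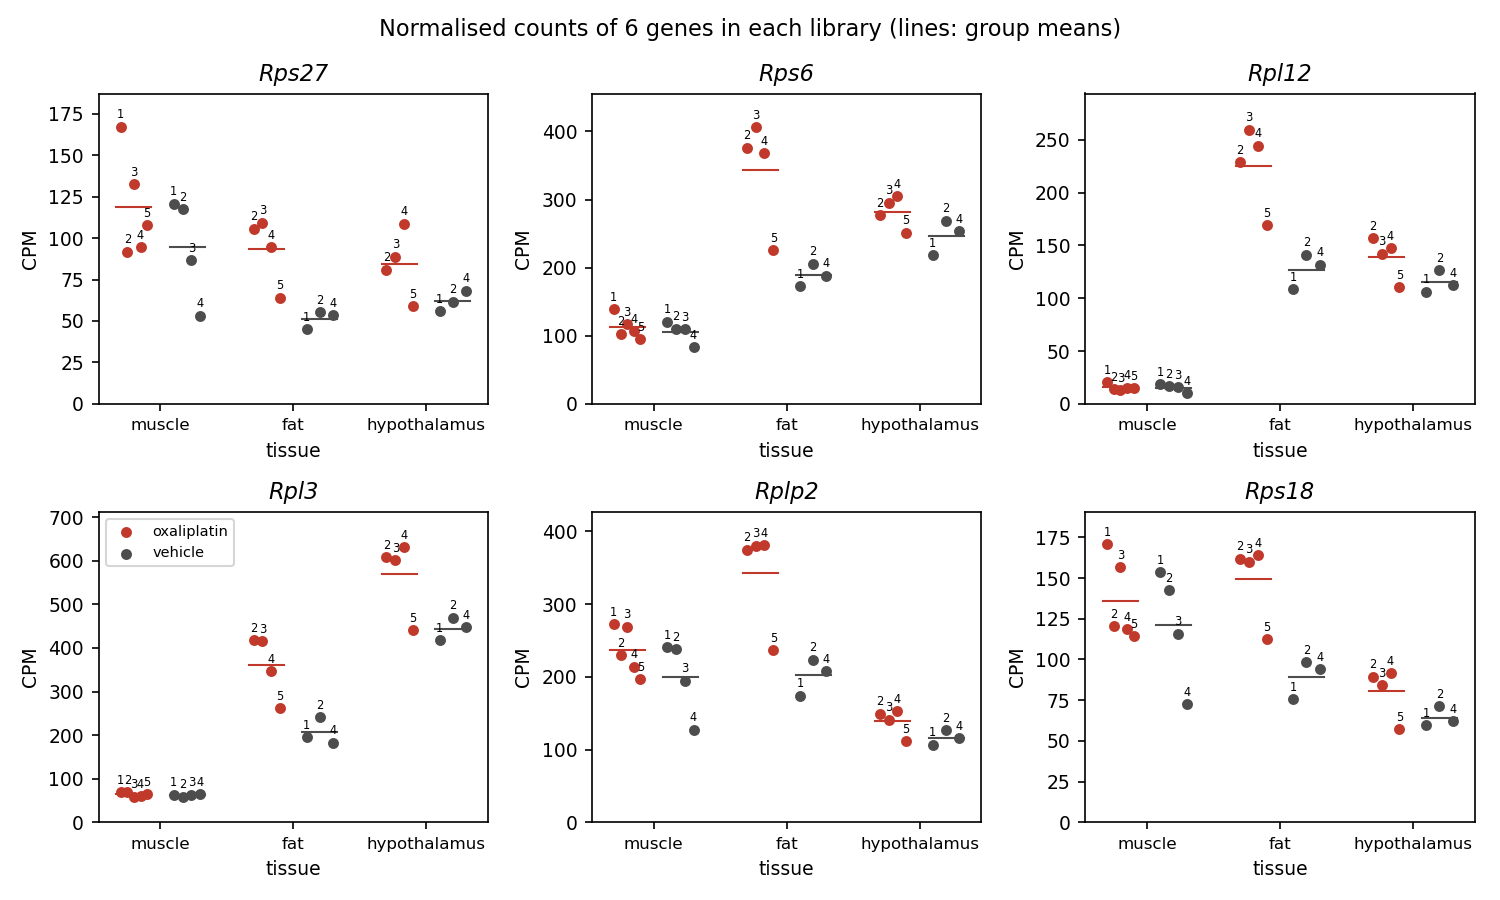
Normalised counts of Rps27, Rps6, Rpl12, Rpl3, Rplp2 and Rps18 in each library, in CPM, for the 3 tissues. Points are mice labelled by number and lines are group means. In fat the oxaliplatin and vehicle mice do not overlap for any of these 6 genes, while in muscle they overlap for all 6.

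The other stalk genes and the partners of p53 control had lower fold changes than these 6. Rplp0 averaged 555 ± 79.0 CPM in oxaliplatin fat and 369 ± 47.5 CPM in vehicle fat (SD, n = 4 and 3), a log2 fold change of 0.59 ± 0.18 (edgeR adjusted p = 0.127). Rplp1 had 0.42 ± 0.17, and Rpsa, which is also known as a laminin-binding protein, 0.54 ± 0.17. Rpl5 and Rpl11, which bind Mdm2 when ribosome assembly is disturbed, had 0.40 ± 0.15 and 0.37 ± 0.15. None of these passed the threshold. The lowest positive values were those of Rpl22, an RNA-binding large-subunit protein, at 0.02 ± 0.11, and Rpl23a at 0.03 ± 0.13, so not every member shared the shift.

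Only 2 members had negative values in fat, Rps4l and Rpl3l. Rps4l, annotated as a transcribed processed pseudogene related to Rps4x, had 15.6, 16.8, 16.0 and 20.1 CPM in oxaliplatin mice 2 to 5, against 22.6, 21.7 and 21.2 CPM in vehicle mice 1, 2 and 4. Its log2 fold change was -0.35 ± 0.13 (edgeR adjusted p = 0.154), and it was the single member whose oxaliplatin libraries all lay below the vehicle libraries, against 11.2% of all genes. Rpl3l had 0.595, 1.48, 0.433 and 1.12 CPM with oxaliplatin, against 1.40, 0 and 117 CPM with vehicle. Its log2 fold change of -5.45 rests on vehicle mouse 4, the library with muscle transcripts, and without that library it was 0.41.

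Leaving out oxaliplatin mouse 5 changed the calls in fat. This was the oxaliplatin library with the lowest level of the members, so leaving it out raises their difference between the groups. Without it edgeR called 47 of 88 members, against 25.5% of all genes, with 46 higher and Rps4l lower, and with 27 from the large and 20 from the small subunit. Rps27 then had a log2 fold change of 1.01 (adjusted p = 0.00237) and Rps6 of 1.02 (adjusted p = 0.00254), while the median over the members was 0.46. DESeq2 on all libraries called 31 members, all higher, against 12.3% of all genes, and 29 of these were among the 47. Leaving out any other single fat library called 0 members. The members higher at an unadjusted p under 0.05 numbered 45, 34, 35 and 71 without oxaliplatin mouse 2, 3, 4 or 5. The shares of all genes were 10.8%, 8.51%, 9.62% and 19.9%. They numbered 21, 53 and 48 members without vehicle mouse 1, 2 or 4, against 8.68%, 9.21% and 8.90% of all genes.

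Several lists of cell type markers leaned to 1 side in fat, but no marker passed the threshold, and every sum given here overlapped between the groups. Of the 4 endothelial markers 2 were above and 2 below 0, and of the 6 macrophage markers 1 was above and 5 were below. Of the 6 fibroblast markers 5 were below 0, with sums of 686 to 11038 CPM in oxaliplatin and 5557 to 7798 CPM in vehicle mice and none at 0. All 8 lymphocyte markers were above 0, with sums of 5.03 to 136 CPM in oxaliplatin and 4.79 to 10.2 CPM in vehicle mice and with Cd3g and Ms4a1 at 0 in some library. Of the 8 adipocyte markers 7 were below 0, with sums of 12219 to 20213 CPM, against 14944 to 19383 CPM. The 3 epithelial markers tested were below 0, with sums of 0 to 18.8 CPM, against 0.110 to 65.4 CPM, and all 5 were at 0 in some library. All 9 muscle fibre markers were below 0, with none at 0. Their sums were 371 to 3067 CPM in oxaliplatin mice and 1319, 16.5 and 123785 CPM in vehicle mice 1, 2 and 4. The groups overlapped, and the high vehicle sum was that of mouse 4 alone. The part of these cell types in the ribosomal protein result was not tested. The median over the members was 0.46 without oxaliplatin mouse 5 and 0.46 without vehicle mouse 4.

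In hypothalamus, all 86 members tested had values above 0, against 52.0% of all genes, and the shift was smaller than in fat. The median log2 fold change was 0.24, against 0.01 for all 18941 genes tested. Rpl3l, with at most 0.322 CPM, was not tested. edgeR called 0 members, against 0.148% of all genes (28, all higher). At an unadjusted p under 0.05, 25 members were higher and 0 lower, against 6.20% and 4.00% of all genes. In 2 members, Rps4l and Rpl4, every oxaliplatin library lay above every vehicle library, against 5.58% of all genes, and in 0 below, against 4.35%. DESeq2 and limma-voom also called 0 members here.

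In hypothalamus, oxaliplatin mouse 5 lay among the vehicle mice. The members took 1.30%, 1.40%, 1.46% and 1.09% of counts in oxaliplatin mice 2, 3, 4 and 5, against 1.057%, 1.18% and 1.10% in vehicle mice 1, 2 and 4. Oxaliplatin mice 2, 3 and 4 exceeded the highest vehicle mouse in 73, 72 and 77 of 80 protein-coding members. Oxaliplatin mouse 5 did so in 1 and lay below the lowest vehicle mouse in 24. The same mouse number was the lowest of the oxaliplatin group in fat and in muscle by the level shown in the plot of library levels, at 0.22 and 0.01. In muscle it was not the lowest by share of counts, with 1.205% against 1.04% in oxaliplatin mouse 4, and its treatment field there says vehicle.

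Rpl29, a basic large-subunit protein, had the highest fold change in hypothalamus, with 127, 102, 118 and 78.6 CPM in oxaliplatin mice 2 to 5, against 70.7, 81.3 and 78.8 CPM in vehicle mice 1, 2 and 4. Its log2 fold change was 0.47 ± 0.15 (edgeR adjusted p = 0.380), and mouse 5 lay within the vehicle range. Rps27 had 80.9, 88.7, 109 and 58.9 CPM, against 55.8, 61.5 and 68.2 CPM (0.45 ± 0.18, adjusted p = 0.464). Rps4l had 32.8, 32.0, 37.0 and 30.9 CPM, against 20.2, 26.0 and 27.1 CPM (0.44 ± 0.12), with the smallest adjusted p of a member, 0.308. Here the groups of Rps4l did not overlap, and its sign was opposite to that in fat.

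Rpl4, which lines the peptide exit tunnel, had 436, 460.1, 500.5 and 384 CPM in oxaliplatin hypothalamus, against 338, 375 and 361 CPM in vehicle hypothalamus (log2 fold change 0.31 ± 0.10, edgeR adjusted p = 0.375). Rpl14 and Rps14 had 0.41 ± 0.14 and 0.40 ± 0.17. Rpl3 averaged 570.1 ± 86.9 CPM with oxaliplatin and 444 ± 26.1 CPM with vehicle (SD, n = 4 and 3), a log2 fold change of 0.36 ± 0.13. The lowest value was that of Rpl7l1, a nucleolar paralog of Rpl7, at 0.04 ± 0.09.

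Without oxaliplatin mouse 5, edgeR called 13 of 86 members in hypothalamus, all higher, against 3.49% of all genes, and the median was 0.32. Here too the library left out had the lowest level of the members among oxaliplatin mice, which raises their difference. Among these were Rpl3, Rpl7, Rpl14, Rpl29, Rpl32, Rpl37a, Rps13, Rps14, Rps18, Rps25, Rps27a and Rps28. Of the 13, 10 were also called in fat without its mouse 5, which is 76.9% of the 13 and 21.3% of the 47. In that fat fit 53.4% of all 88 members were called, and whether the overlap exceeds this share was not tested. The members higher at an unadjusted p under 0.05 numbered 17, 8, 5 and 68 of 86 without oxaliplatin mouse 2, 3, 4 or 5. The shares of all genes were 5.59%, 4.18%, 4.41% and 10.1%. They numbered 1, 33 and 7 of 86 members without vehicle mouse 1, 2 or 4, against 4.86%, 4.04% and 3.83% of all genes. Without vehicle mouse 1 or oxaliplatin mouse 4 the share was thus near or under that of all genes. All 4 endothelial markers were above 0, with sums of 110.1 to 181 CPM in oxaliplatin and 63.1 to 69.5 CPM in vehicle mice and none at 0, and Pecam1 passed the threshold (1.49 ± 0.18, edgeR adjusted p = 0.0212). All 4 oligodendrocyte markers were below 0, with sums of 1491 to 3717 CPM, against 3373 to 4143 CPM, and none at 0. Their part in the result was not tested.

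**Figure D3:**
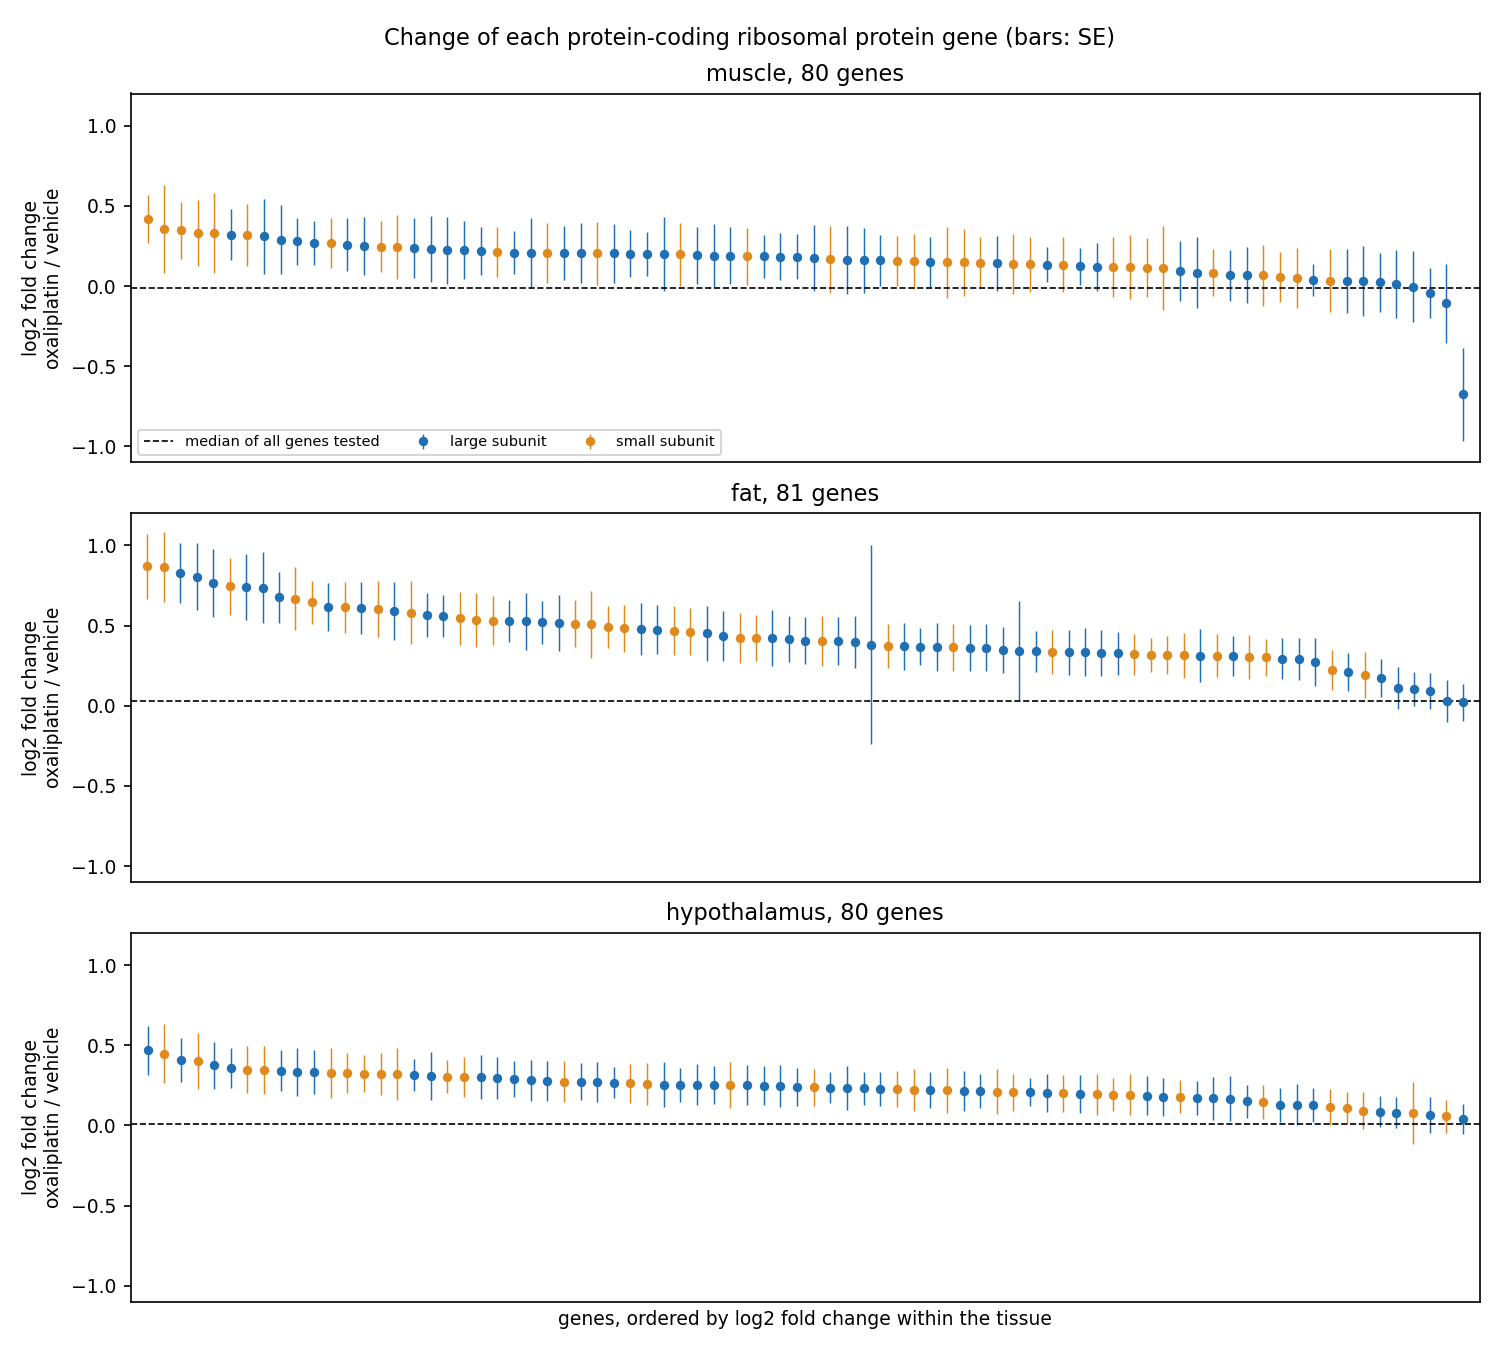
Log2 fold change, oxaliplatin over vehicle, of each protein-coding member tested in muscle, fat and hypothalamus, without Rpl3l, ordered within each tissue. Points are genes, bars are SE, colours mark the subunit, and the dashed line is the median of all genes tested. Both subunits are mixed along each order, and the points of fat reach the highest values.

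In muscle the shift was smaller still and its size depended on single libraries. The median log2 fold change of the 85 members tested was 0.17, against -0.01 for all 14737 genes, and 80 of 85 were above 0, against 47.8% of all genes. Rpl32l, Rpl39l and Rps3a3 were too low to test. edgeR called 0 members, against 0.163% of all genes (24). At an unadjusted p under 0.05, 1 member was higher and 1 lower, against 4.80% and 4.79% of all genes and 9.59% in either direction. In 1 member every oxaliplatin library lay above every vehicle library, against 2.18% of all genes, and in 0 below, against 1.70%. DESeq2 and limma-voom also called 0 members in muscle. Without vehicle mouse 4, the median over the members was 0.03, and without oxaliplatin mouse 1 it was 0.10.

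The members took 1.51%, 1.09%, 1.17%, 1.04% and 1.205% of counts in the muscle of oxaliplatin mice 1 to 5, against 1.09%, 1.09%, 1.03% and 0.795% in vehicle mice 1 to 4. Vehicle mouse 4 was the lowest library for 79 of 81 protein-coding members, and oxaliplatin mouse 1 the highest for 63. The remaining libraries of both groups lay between them and overlapped. Without vehicle mouse 1 or 2, the members higher at an unadjusted p under 0.05 numbered 4 of 85, near the 4.29% and 4.59% of all genes. Summed fibroblast markers were 389 to 817 CPM in oxaliplatin and 531 to 1801 CPM in vehicle muscle, with all 6 below 0 and none at 0. The 4 endothelial markers were above 0, with sums of 141 to 158 CPM, against 90.7 to 127 CPM, and Pecam1 passed the threshold (0.68 ± 0.11, edgeR adjusted p = 0.0443). With muscle oxaliplatin mouse 5 set to vehicle, as its treatment field says, edgeR called 0 genes in muscle, so Pecam1 did not pass. The part of the fibroblast and endothelial markers in the result was not tested.

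Rps28, a small protein near the messenger RNA exit of the small subunit, was the member whose muscle groups did not overlap. It had 157, 119.6, 131, 118 and 129 CPM in oxaliplatin mice 1 to 5, against 111, 109.9, 97.2 and 72.9 CPM in vehicle mice 1 to 4, a log2 fold change of 0.42 ± 0.15 (edgeR adjusted p = 0.350). Rps2 and Rpsa followed with 0.35 ± 0.28 and 0.35 ± 0.18. At the other end, Rpl22l1, the paralog of Rpl22, had 20.5, 19.7, 25.2, 23.1 and 11.1 CPM, against 39.0, 44.4, 27.2 and 16.6 CPM (-0.68 ± 0.29, adjusted p = 0.474). All 5 oxaliplatin mice lay below the 3 highest vehicle mice, and vehicle mouse 4 lay among them.

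Fat had the highest fold change for most members, but the difference between tissues was not past the threshold for any of them. Of 80 protein-coding members tested in all 3 tissues, 76 were above 0 in each. The fat value was above the hypothalamus value for 69 of the 80 and above the muscle value for 72, and the hypothalamus value was above the muscle value for 58. The edgeR test of the difference of the effects called 0 of 88 members for fat minus muscle, 0 of 87 for fat minus hypothalamus and 0 of 87 for muscle minus hypothalamus, against 0.239%, 0.311% and 0.0689% of all genes. At an unadjusted p under 0.05 there were 5, 6 and 1 members, against 17.0%, 19.7% and 9.33% of all genes. The median differences were 0.28, 0.19 and -0.02, against 0.04, -0.03 and -0.01 for all genes.

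Single genes came nearer to the threshold. Rpl3 had an effect difference of 0.79 ± 0.22 for fat minus muscle (edgeR adjusted p = 0.106), since its muscle values hardly differed between groups (64.5 ± 4.91 CPM with oxaliplatin and 62.7 ± 2.62 CPM with vehicle, SD, n = 5 and 4). Rps6 and Rpl12 had 0.81 ± 0.28 and 0.84 ± 0.29. For fat minus hypothalamus, Rps4l had -0.79 ± 0.19 (adjusted p = 0.0683). In a fit that changes both the method (limma-voom) and the block (the mouse as a random effect) it was called, at -0.81 and adjusted p = 0.0494, 1 member against 1.26% of all genes. Without fat oxaliplatin mouse 5, the edgeR test called Rpl3, Rpl12 and Rps6 for fat minus muscle (8.64% of all genes) and Rpl12, Rpl36, Rplp2, Rps4l and Rps6 for fat minus hypothalamus (15.2%). Without fat vehicle mouse 2, Rpl3l was called for fat minus muscle, against 1.34% of all genes. That fit kept fat vehicle mouse 4, the library with muscle transcripts, at 117 CPM of Rpl3l against 1.40 CPM in vehicle mouse 1. Without vehicle mouse 4, the log2 fold change of Rpl3l in fat was 0.41.

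Large and small subunit members had close medians in every tissue. The median log2 fold change of the large and the small subunit was 0.37 and 0.42 in fat, 0.24 and 0.23 in hypothalamus, and 0.18 and 0.15 in muscle. In fat, 34 of 52 large and 27 of 36 small members were higher at an unadjusted p under 0.05, against 13.4% of all genes. In hypothalamus these were 15 of 50 and 10 of 36, against 6.20% of all genes, and in muscle 0 of 50 and 1 of 35, against 4.80%. Among protein-coding members alone, the fat medians were 0.37 for the large and 0.47 for the small subunit, and this gap was not tested.

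Per kilobase of coding sequence, levels ranged widely among the members within each tissue. The median over protein-coding members was 329 CPM per kilobase in oxaliplatin and 238 in vehicle fat, 312 and 262 in hypothalamus, and 275 and 245 in muscle. Counts are of the whole gene and can include reads outside the coding sequence. Dividing by coding length alone therefore raises members with a short coding sequence, and the ranks depend on this choice. Rpl41, whose coding sequence of 75 bases is the shortest, ranked first in all 3 tissues by this measure. It was followed by Rps29 in muscle and Rplp1 in fat and hypothalamus. The lowest in vehicle mice were Rpl39l, Rpl12 and Rpl5 in muscle, Rpl39l, Rpl22l1 and Rpl3l in fat, and Rpl3l, Rps27l and Rpl7l1 in hypothalamus. In fat, Rpl3l had 32.4 CPM per kilobase in vehicle mice and rank 80 of 82, and without vehicle mouse 4 it had 0.574 and rank 82. Some members changed place between tissues: by the vehicle level per kilobase, Rpl3 ranked 78 of 82 in muscle, 65 of 82 in fat and 13 of 81 in hypothalamus. Rps12 ranked 76, 6 and 20, and Rpl12 81, 35 and 51. The kit differs between muscle and the other tissues, and its part in these ranks was not tested.

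Rpl3l had its high level in muscle, with close means in both groups there. This paralog of Rpl3 is known from striated muscle, and in muscle it had 201, 228, 278, 214 and 174 CPM in oxaliplatin mice 1 to 5, against 256, 276, 194 and 144 CPM in vehicle mice 1 to 4. The groups overlapped, and its log2 fold change was 0.01 ± 0.20 (edgeR adjusted p = 0.998). Its log2 ratio to Rpl3 in muscle was 1.75 ± 0.31 with oxaliplatin and 1.75 ± 0.48 with vehicle (SD, n = 5 and 4), with p = 0.992 in an exact two-sided permutation test. In hypothalamus it had 0.0411 to 0.322 CPM with oxaliplatin and 0.0360 to 0.205 CPM with vehicle. The 5 genes whose log2 CPM over the 9 muscle libraries was most correlated with that of Rpl3l were Ndufs7 (Pearson r = 0.994), Micos10 (0.989), Ndufs6 (0.989), Uqcr11 (0.988) and Vegfb (0.988), while Rpl3 had r = -0.45. These are descriptions over 9 libraries. All genes of a library share its depth and RNA quality, which can differ between libraries, and the part of these in the correlations was not tested.

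**Figure D4:**
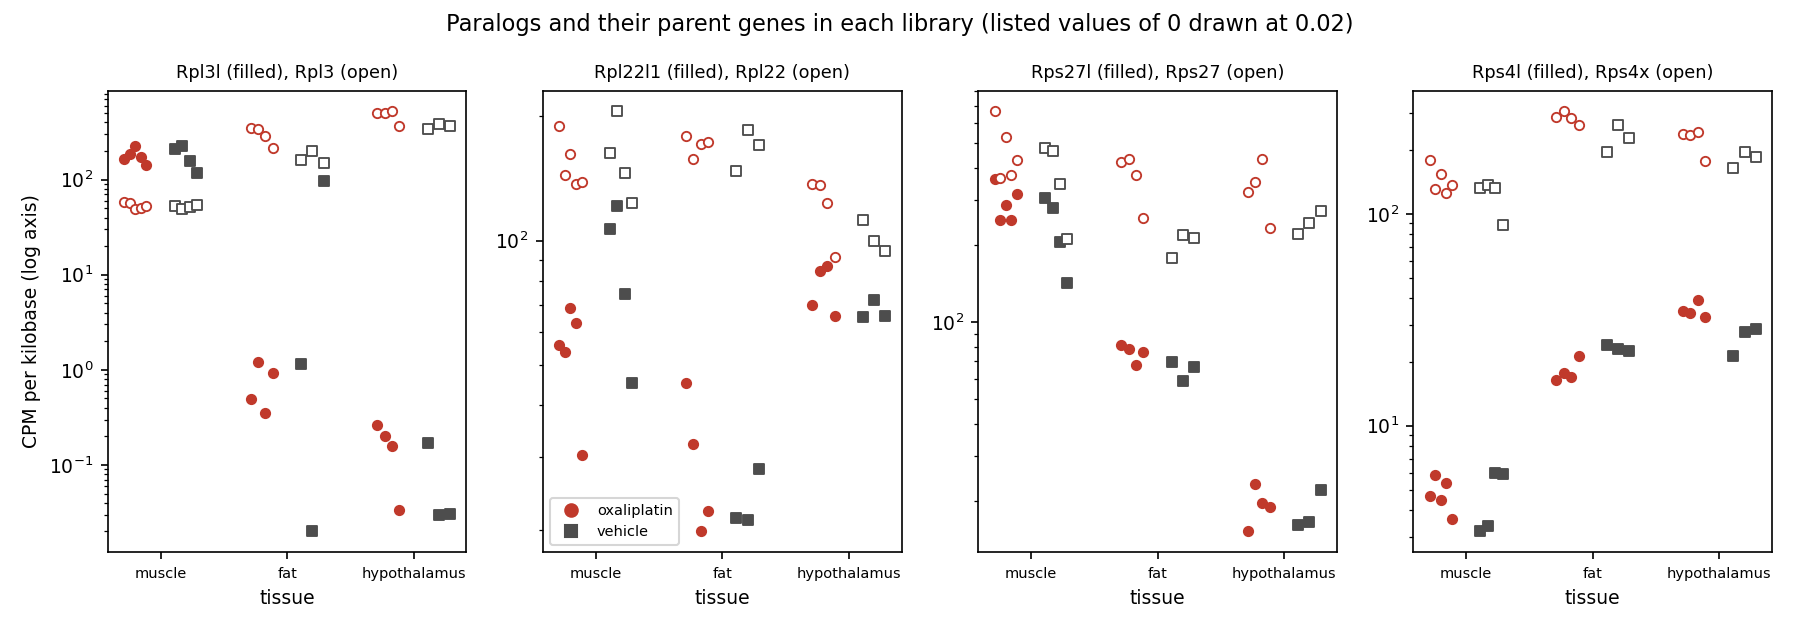
Levels per kilobase of Rpl3l and Rpl3, Rpl22l1 and Rpl22, Rps27l and Rps27, and Rps4l and Rps4x in each library, on a log axis with listed zeros drawn at 0.02. Filled points are the paralogs, open points their parent genes, and colours mark oxaliplatin and vehicle mice. Rpl3l lies above Rpl3 in muscle alone, and the fat library of vehicle mouse 4 is the one outside muscle that nears it.

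No paralog ratio differed between groups past the threshold in the 15 tests of a pair in a tissue. The smallest adjusted p was 0.321. Before adjustment, an exact permutation test cannot give less than 0.0286 with 4 oxaliplatin and 3 vehicle mice, or 0.00794 with 5 and 4. After adjustment over the 15 tests, a pair at this lower limit could not pass unless several other pairs also had very low p. The lack of calls therefore does not show that the ratios were alike. The log2 ratio of Rpl22l1 to Rpl22 in muscle was -1.61 ± 0.44 with oxaliplatin and -1.01 ± 0.36 with vehicle (SD, n = 5 and 4; exact permutation p = 0.0794). In fat, the ratio of Rps4l to Rps4x was -3.71 ± 0.23 with oxaliplatin and -3.03 ± 0.24 with vehicle (n = 4 and 3; exact permutation p = 0.0571). That of Rps27l, known as a p53 target in human cells, to Rps27 was -2.25 ± 0.35 and -1.63 ± 0.27 in fat (exact permutation p = 0.0857). That of Rpl7l1 to Rpl7 in hypothalamus was -2.45 ± 0.18 and -2.16 ± 0.03 (exact permutation p = 0.0571).

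The other paralogs had small differences or low levels. In fat, Rps27l averaged 19.2 ± 1.44 CPM in oxaliplatin and 16.4 ± 1.42 CPM in vehicle fat (SD, n = 4 and 3; log2 fold change 0.22 ± 0.13), against 0.87 for Rps27. Rpl22l1 had 16.6, 11.8, 7.26 and 8.11 CPM in oxaliplatin fat, against 7.81, 7.74 and 10.3 CPM in vehicle fat. Rpl39l, known from testis, had at most 2.11 CPM in fat and 0.347 CPM in muscle. Rpl10l was not analysed here.

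Ribosomal protein genes under other names had positive fold changes in fat and hypothalamus, and mitochondrial ones mostly negative ones. Fau, which encodes a fusion precursor of a ribosomal protein, had a log2 fold change of 0.78 ± 0.18 in fat and 0.31 in hypothalamus. Rack1, a scaffold on the small subunit, had 0.62 ± 0.18 in fat and 0.19 in hypothalamus. The 78 mitochondrial ribosomal protein genes had a median of -0.24 in fat, with 69 below 0 and 26 lower at an unadjusted p under 0.05, against 12.7% of all genes. Their medians were -0.06 in hypothalamus and 0.00 in muscle. The 54 ribosome biogenesis genes had a median of 0.31 in fat, with 17 higher at an unadjusted p under 0.05, against 13.4% of all genes, and -0.01 in hypothalamus. Among them, Myc, a transcription factor of growth genes, had 1.07 ± 0.21 in fat.

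The wider translation lists had smaller medians than the members. The 17 translation factors and other genes with known TOP messenger RNAs had medians of 0.35 in fat, 0.14 in hypothalamus and 0.00 in muscle, and the 29 initiation factor genes 0.10, 0.05 and 0.03. Npm1, a nucleolar chaperone, had 1.05 ± 0.29 in fat and 0.38 ± 0.10 in hypothalamus. The 17 regulators of mTOR had medians of 0.02 in fat, 0.03 in hypothalamus and -0.02 in muscle, with 8, 8 and 9 below 0. Among them, Ddit4, an mTOR inhibitor induced by stress, had 2.99 ± 0.83 in fat and 1.56 ± 0.29 in hypothalamus, Tsc2, a subunit of the complex that restrains mTOR, -0.51 ± 0.15 in fat, and Sesn1, a p53 target upstream of mTOR, 1.78 ± 0.57 in fat and 1.36 ± 0.36 in muscle. By edgeR, 0 genes of these lists passed the threshold in any tissue.

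**Figure D5:**
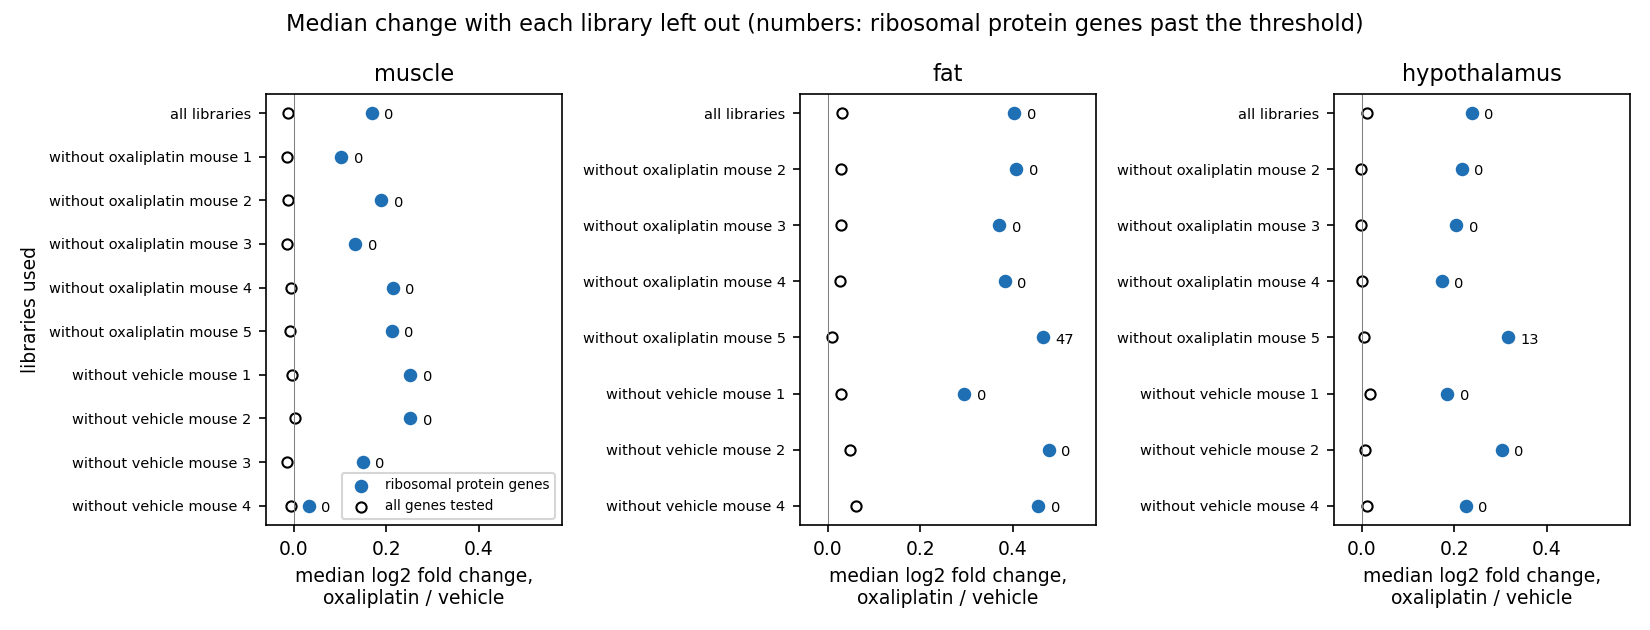
Median log2 fold change, oxaliplatin over vehicle, of the ribosomal protein genes (filled) and of all genes tested (open) with all libraries and with each library left out, in muscle, fat and hypothalamus. The number beside a filled point is how many members edgeR called. The median stayed above 0 in every setting, and members were called without oxaliplatin mouse 5 in fat (47) and in hypothalamus (13).

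Spread and shared reads limit single genes. The median coefficient of variation within a group was 10.4% in oxaliplatin and 12.8% in vehicle fat, 13.97% and 8.46% in hypothalamus, and 15.58% and 26.0% in muscle. Many members have near-identical pseudogene copies, and reads could be split between them. In muscle, rows named as pseudogenes of a member held up to 61.7% of that member's own counts (Rpl9), with 60.2% for Rpl10 and 49.3% for Rpl17, so values of such members are uncertain. No source used here states whether counting used the strand, and reads of an overlapping antisense gene or of a small nucleolar RNA within a member cannot be told apart from its own.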

How the data were processed

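RNA sequencing libraries of muscle, fat and hypothalamus were analysed from 1 gene table per tissue. Per the submitters' processing notes, STAR 2.5.1a, Partek and DESeq2 were used, with no role stated. A genome build is not named in the sources used here; gene starts equalled GENCODE M21 (GRCm38) for 99.4% to 99.5% of rows. The authors deposited expected counts per gene, not scaled between libraries: not whole were 45.7% of muscle, 41.4% of fat and 49.1% of hypothalamus values, and each row summed to 10 or more. Because the tests were planned for whole counts, values were rounded first.

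Each tissue was fitted alone with R 4.3.3 and edgeR 4.0.16 (filterByExpr with minimum count 10 and minimum total 15, TMM factors, robust quasi-likelihood F test, Benjamini-Hochberg over all genes, threshold 0.05). The SE is the log2 fold change divided by the square root of F. CPM values use the TMM factors, and log2 CPM and paralog ratios a prior count of 2. Differences between tissues were interaction contrasts over both tissues. Paralog ratios used exact two-sided permutation tests over libraries, adjusted over 15 tests. The tests were checked on simulated counts. Intervals reflect the spread between mice, and depth per library is given with the results.

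Groups follow the titles. Mouse numbers name different animals in the arms, so no block was used within a tissue. A number within an arm was taken as the same mouse across tissues, and the correlation of its residuals was -0.124, 0.0667 and -0.0317 for the 3 tissue pairs. Genes named are, per tissue, the 5 highest and 5 lowest fold changes (with a mean of at least 1 CPM in the higher group), the 5 smallest p, the 3 highest and lowest per kilobase, the paralogs with their parents, Rpl5, Rpl11, the stalk genes and Rpsa, the 3 smallest p of each effect difference in each direction, and up to 3 genes per other list by smallest p. Other genes were named after their values were seen, and a few genes that the rule names are not reported here. Alternatives were other library factors, DESeq2 1.42.0, limma 3.58.1 (voom), no filter, each library left out, a replicate block, muscle oxaliplatin mouse 5 set to vehicle, another prior count for ratios and, added after seeing the data, protein-coding members only. The members, lists and tests were chosen with earlier results of these data known.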

Additional observations from a re-analysis of the deposited data

Results flagged for a closer look

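Single libraries stood far from the rest of their group for 11 values, by Dixon's test at the 95% level, out of 115 groups of 4 or 5 libraries examined. Chance would flag about 1 in 20 independent groups. These groups share libraries, and many of the genes were named for high or low fold changes or small p. The number of flags can therefore not be set against that rate, and 1 low library can flag many members at once. Of the 11, 6 belong to oxaliplatin mouse 5, 3 in fat and 3 in hypothalamus, and each was the lowest of its group. In fat these were Rpl32 at 114 CPM, Rplp2 at 237 CPM and Rps18 at 113 CPM. In hypothalamus they were Rpl3 at 441 CPM, Rpl39 at 31.6 CPM and Rps4x at 140.3 CPM. In muscle, Rps2 at 95.8 CPM and Rps4x at 69.7 CPM were low in vehicle mouse 4. Rpl12 at 20.8 CPM was high in muscle of oxaliplatin mouse 1, Rpl39l at 0.347 CPM in oxaliplatin mouse 4, and Rpl7l1 at 44.4 CPM in vehicle mouse 1. The causes were not tested.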

How the results depend on the processing

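The median log2 fold change of the members stayed above 0 in each tissue under every alternative, within 0.03 to 0.25 in muscle, 0.30 to 0.48 in fat and 0.17 to 0.32 in hypothalamus when single libraries were left out. Members called in fat were 31 with DESeq2 and 0 to 47 with 1 library left out, and in hypothalamus 0 to 13 with 1 left out; the other alternatives called 0. All genes called numbered 254 (DESeq2), 13 (limma-voom), 42 (no filter), 0 (mouse 5 set to vehicle) and 2 to 17 (1 library left out) in muscle, 2450 (DESeq2) and 0 to 4969 in fat, and 262 (DESeq2), 11 (limma-voom) and 0 to 655 in hypothalamus. For the effect differences, leaving out 1 library called 0 to 3 members (fat minus muscle) and 0 to 5 (fat minus hypothalamus). The causes were not tested.

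Mouse numbers do not pair the arms. With the number as a replicate block, 0 members were called in each tissue, the medians were 0.23 in muscle, 0.36 in fat and 0.30 in hypothalamus, the members higher at an unadjusted p under 0.05 numbered 4, 17 and 37 (against 3.62%, 9.12% and 7.35% of all genes), and 3 genes in all were called in muscle. The log2 fold changes of Rpl35a (0.041), Rps12l1 (0.022), Rpl22 (0.0050) and Rpl17 (0.12) in muscle, Rpl22 (-0.021) in fat and Rps27l (-0.15) in hypothalamus changed sign under that block. limma-voom with the mouse across tissues as a random effect, which changes method and block together, called 1 member, Rps4l, for fat minus hypothalamus.

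Values near 0 changed sign elsewhere. With muscle mouse 5 set to vehicle, Rpl35a had 0.060, Rps12l1 0.10, Rpl22 0.028 and Rpl17 0.13, and Rpl17 had 0.038 with limma-voom and 0.0015 with no filter. With 1 library left out, muscle values ran from -0.16 to 0.23 for Rpl39, -0.018 to 0.16 for Rps6, -0.13 to 0.14 for Rpl12, -0.19 to 0.15 for Rpl17, -0.14 to 0.15 for Rpl3l, -0.088 to 0.19 for Rps4l, -0.31 to 0.088 for Rps12l1, -0.15 to 0.11 for Rpl22, -0.32 to 0.053 for Rpl35a, -0.018 to 0.20 for Rpl5 and -0.030 to 0.33 for Rplp1. Fat values ran from -0.064 to 1.35 for Rpl39l, -0.072 to 0.093 for Rpl22 and -6.05 to 0.41 for Rpl3l, and hypothalamus values from -0.034 to 0.24 for Rps27l and -0.028 to 0.082 for Rpl7l1. Differences of log2 paralog ratios ran from -0.15 to 0.090 for Rpl7l1, -0.041 to 0.070 for Rps27l, -0.20 to 0.16 for Rpl3l and -0.36 to 0.13 for Rps4l in muscle, -0.22 to 0.70 for Rpl39l and -4.75 to 0.47 for Rpl3l in fat, and -0.16 to 0.035 for Rpl22l1 in hypothalamus. Groups of 3 to 5 mice limit what single genes can show.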
